A study of Homo sapiens with 21 samples.

Results

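Genes of 9 transcription factors of the epithelial to mesenchymal transition (EMT) were followed in HMLE cells during treatment with TGFβ: SNAI1, SNAI2, ZEB1, ZEB2, TWIST1, TWIST2, TCF4, FOXC2 and PRRX1. They were taken by symbol, and all 9 were among the 23201 genes listed. HMLE cells are an established human line, mammary epithelial cells that were immortalized. RNA was sequenced from untreated cells (d0) and from cells kept in TGFβ, a cytokine known to drive EMT, for 1, 4, 7, 10, 15 or 20 days (d1 to d20), with 3 libraries at each of the 7 timepoints and 21 in all. All wells were seeded at one density, and the study describes the libraries as biological triplicates. Untreated cells were sampled at d0 alone, so the effects of TGFβ and of time in culture cannot be told apart.

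During EMT, epithelial cells lose their junctions and polarity and gain a mesenchymal, motile form. SNAI and ZEB proteins are zinc finger factors that bind E-boxes in the promoters of epithelial genes such as CDH1, the gene of E-cadherin, and repress them. TWIST1, TWIST2 and TCF4 are basic helix-loop-helix (bHLH) proteins that also bind E-boxes, as dimers, while FOXC2 is a forkhead factor and PRRX1 a homeobox factor. The order in which such factors rise, and which of them persist, is the question that a time course addresses.

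Values are normalized read counts: the reads of a gene divided by 1 size factor per library, so that 1 unit is close to 1 read. The libraries held between 18847917 and 22667754 reads. Of the 9 genes, 7 passed a filter on low values (a mean of at least 10 over the 21 libraries), and SNAI1 and PRRX1 did not. The 13343 genes that passed were tested with limma on the scale of log2(value + 1), which understates the change of low genes, with Benjamini-Hochberg adjustment within each comparison and a threshold of 0.05. The 6 basal mammary epithelial marker genes (KRT5, KRT14, KRT17, TP63, ITGA6 and LAMB3) summed to between 270970 and 278168 in the libraries of d10, 540067 and 559627 at d15, and 399435 and 761030 at d7. The part of this change in the results was not tested. Over all libraries, 6 luminal markers summed to between 11499.5 and 16821.7, and 4 blood cell markers to between 2.10 and 50.04. The third library at d7 stood apart. It differed from the other libraries of that day by a root mean square of 0.47 and 0.46 on the log2 scale, whereas libraries of the same timepoint otherwise differed by 0.21 to 0.24.

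On each of the 6 days, all 7 genes tested exceeded their untreated level and passed the test (largest adjusted p = 0.000625, for ZEB2 at d1, limma). Among all genes tested, 31.3% were higher at d1, 36.9% (d4), 34.6% (d7), 37% (d10), 39.2% (d15) and 32.5% (d20). With libraries rescaled to the same total, which moved the all-gene median to between -0.20 and -0.14 (log2), all 7 genes still passed on each day, where the shares higher and lower over the whole table became 18.3% and 50.2% (d1) and 19.9% and 50.8% (d20). For each of the 7 genes, all 18 treated libraries lay above all 3 untreated libraries. The share of all genes tested that were separated in this way was not counted, so this is a description of the 7 genes alone. ZEB1 and FOXC2 had untreated means of 5.71 and 3.01, below the filter of 10. They passed it through their treated libraries, so some rise under treatment was given for them by the filter. The 6 comparisons share the same untreated libraries. The size and the timing of the increase differed from gene to gene. ZEB1 had the largest log2 fold change at each day, from 2.76 at d1 to 6.02 at d20, and TCF4 the smallest at each day, from 0.47 at d1 to a maximum of 1.07 at d7. At d7 TWIST2 was nearly equal (1.08), and without the third d7 library TWIST2 (0.88) was below TCF4 (1.15). SNAI1 stayed at the floor of detection, taken as 3 reads in a library, in 20 of the 21 libraries, and PRRX1 left it late.

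**Figure D1:**
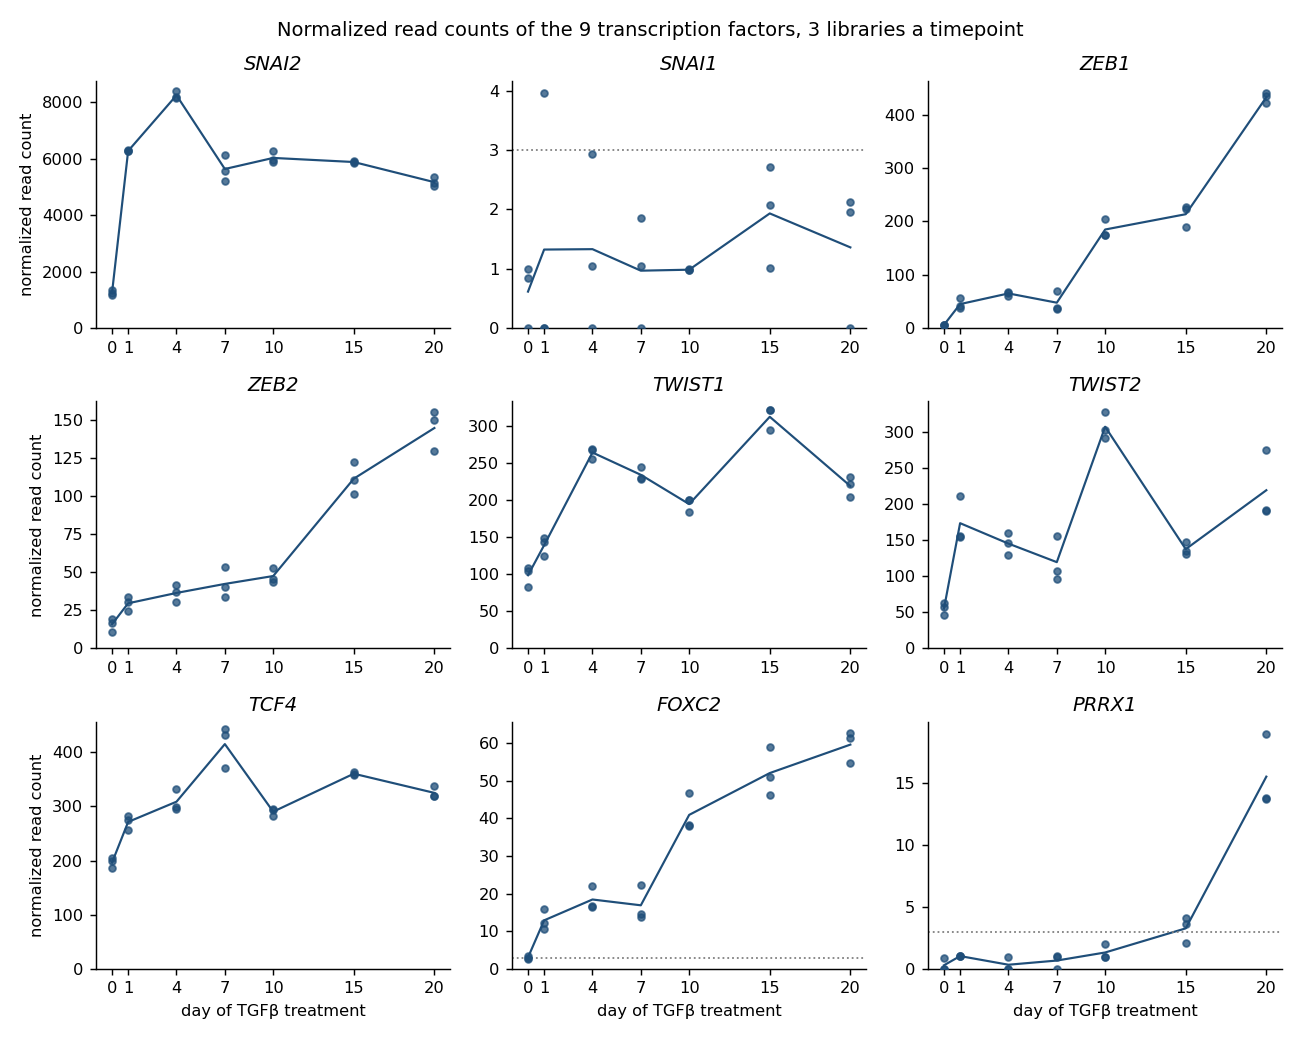
Normalized read count (y axis, linear, a separate scale in each panel) against day of TGFβ treatment (x axis) for the 9 genes; points are libraries, lines join the means of 3 libraries, and the dotted line in the SNAI1, FOXC2 and PRRX1 panels is a normalized count of 3. SNAI2 was highest at d4, ZEB1, ZEB2, FOXC2 and PRRX1 had their highest means at d20, and SNAI1 did not exceed 3.97 in any library.

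SNAI2, which encodes the zinc finger repressor also called SLUG, had the highest level per length of the 9 genes at each timepoint and rose early. Its normalized counts in the 3 untreated libraries were 1336, 1239 and 1168. They were 6259.96, 6309 and 6268 (d1) and 8398, 8209.6 and 8154 (d4). The lowest d1 library was thus far above the highest untreated one, and the groups d0, d1 and d4 did not overlap. Counts were 5578, 5211 and 6126 (d7), 5953, 5881 and 6260.12 (d10), 5843, 5898 and 5917 (d15), and 5139, 5354 and 5020.44 (d20). The log2 fold change against d0 was 2.33 at d1, 2.73 at d4 and 2.05 at d20, each with a standard error of 0.05 (limma, adjusted p = 4.87e-19 at d20). In the order of levels, d4 came before d1, d10, d15, d7, d20 and d0, and neighbours from d1 to d7 in this order were not separated. The ends of that stretch did differ, with d7 lower than d1 by a log2 difference of -0.16 (adjusted p = 0.00798, limma). The difference between d4 and d1 was 0.39 on the log2 scale (adjusted p = 6.1e-07, limma), and d20 was lower than d1 by a log2 difference of -0.28 (adjusted p = 0.000105, limma). Between d1 and d20, 42.1% of all genes tested differed in either direction.

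SNAI1, which encodes SNAIL, a short-lived relative of SNAI2, had between 0 and 4 reads in every library. It had at most 3 reads in 20 of the 21 libraries and 0 reads in 6. Summed over the 3 libraries of a timepoint, there were 2 reads at d0, 4 (d1), 4 (d4), 3 (d7), 3 (d10), 6 (d15) and 4 (d20). By normalized value, the treated and untreated libraries overlapped on all days other than d15, where the lowest value was 1.02 against a highest untreated value of 0.99. Each of these values stands for 1 read, so in reads d15 overlapped with d0 as well. The ratio of d15 to d0 was 3.26, with a 95% exact interval of 0.583 to 33.0 for counting error alone. This interval includes equal levels at d0 and d15 as well as a large rise, so a change in SNAI1 mRNA could not be settled from these reads. Without the filter on low values, limma's adjusted p for SNAI1 against d0 ran from 0.23 at d15 to 0.925 at d1.

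Since SNAI1 protein is controlled largely by phosphorylation and degradation, 15 regulators of its turnover were also examined. At d20, 9 of the 15 were higher and 2 lower, with a median log2 fold change of 0.24 against 0.00 over all genes. With libraries rescaled to the same total, 3 were higher and 4 lower. The largest rises were in LOXL2, which encodes a lysyl oxidase family enzyme that binds SNAI1, from 1315 ± 4.69 (SD, n = 3) at d0 to 3115 ± 115 at d20, and in CSNK1E, which encodes a casein kinase, from 1818 ± 61.1 to 2679 ± 43.1. BTRC, which encodes an F-box protein of the ubiquitin ligase that targets SNAI1, fell by 0.19 on the log2 scale (adjusted p = 0.0302, limma). COPS2, which encodes a subunit of the COP9 signalosome, fell by 0.13. Across all genes tested, 32.5% were higher and 30.2% lower at d20, and 19.9% and 50.8% with libraries rescaled to the same total.

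ZEB1 rose in steps. ZEB1 encodes a zinc finger homeobox repressor of CDH1 and of the miR-200 genes. Its normalized counts were 6.23, 5.94 and 4.95 (d0), 37.7, 41.0 and 55.6 (d1), and 68.4, 65.2 and 60.7 (d4). At d7 they were 36.9, 35.5 and 69.8, where the third library was the high one. Counts then were 175, 204 and 175 (d10), 227, 223 and 190 (d15), and 423, 435 and 442 (d20). The d20 libraries were all above those of every other day. The log2 fold change against d0 was 2.76 at d1, 4.79 at d10 and 6.02 at d20 (standard error 0.19, adjusted p = 5.13e-17 at d20, limma). ZEB1 rose between d7 and d10 by 2.01 (adjusted p = 7.04e-09, limma) and between d15 and d20 by 1.02 (adjusted p = 5.59e-05, limma), while d10 and d15 were not separated (0.21, adjusted p = 0.321, limma). At the end of the treatment it stood 3.27 above d1 on the log2 scale, the largest such difference among the 7 genes. Without the third d7 library, the rise from d7 to d10 was 2.32.

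ZEB2, which encodes the paralog of ZEB1, rose later and less. Its counts were 19.6, 16.96 and 10.9 (d0), 30.3, 24.6 and 33.7 (d1), 36.8, 41.9 and 30.4 (d4), and 40.1, 53.2 and 33.5 (d7). The libraries of d1, d4 and d7 overlapped one another, and neighbours in the order of levels from d1 to d10 were not separated, although d7 and d10 were each higher than d1 (0.49 and 0.67 on the log2 scale, adjusted p = 0.0368 and 0.0129, limma). Counts were 45.8, 43.7 and 52.8 (d10), 110, 122 and 102 (d15), and 129, 149 and 155 (d20). Among successive treated days, the step that passed the test was from d10 to d15, with a log2 difference of 1.21 (standard error 0.20, adjusted p = 1.02e-05, limma). From d15 to d20 the difference was 0.37 (adjusted p = 0.0948, limma), and edgeR's quasi-likelihood test on the recovered reads gave an adjusted p of 0.022. Against d0, the log2 fold change was 0.89 at d1, 1.56 at d10 and 3.15 at d20.

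The ratio of ZEB1 to ZEB2 within a library does not depend on the size factor. It was 0.374 on average at d0 and at most 0.455 in any untreated library, whereas each of the treated libraries had a ratio of at least 0.667. The mean ratio was 1.52 (d1), 1.81 (d4), 1.22 (d7), 3.94 (d10), 1.92 (d15) and 3.01 (d20). The d7 libraries had ratios of 0.921, 0.667 and 2.08, the highest in the third library, which stood apart. From d7 to d10, d10 to d15 and d15 to d20, the libraries did not overlap (exact permutation p = 0.1, two-sided, the smallest that 3 libraries against 3 allow). The ratio was thus highest at d10 and lower again at d15. Levels of different genes are compared here per length, with the merged protein-coding exons of GENCODE 29 as the length: at d0 the mean was 0.876 per kb for ZEB1 and 1.00 for ZEB2, and at d20 it was 66.5 and 9.17.

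ZEB1 and ZEB2 are the classical targets of the miR-200 family, small RNAs that pair with the 3′ untranslated regions of both mRNAs and that both proteins in turn repress. The mature sequences are shown because their seeds (bases 2 to 8, in capitals) divide the family into a pair of groups, with miR-205, which also targets ZEB1, beside them. The sequences are from RefSeq (GRCh38.p14), all on the plus strand. In the first group miR-200b-3p is at chr1:1167160-1167181, miR-429 at chr1:1169055-1169076 and miR-200c-3p at chr12:6963742-6963764. In the second, miR-200a-3p is at chr1:1167916-1167937 and miR-141-3p at chr12:6964155-6964176. The last, miR-205-5p, is at chr1:209432166-209432187.
hsa-miR-200b-3p: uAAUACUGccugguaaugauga
hsa-miR-429: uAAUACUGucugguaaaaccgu
hsa-miR-200c-3p: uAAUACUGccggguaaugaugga
hsa-miR-200a-3p: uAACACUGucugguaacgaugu
hsa-miR-141-3p: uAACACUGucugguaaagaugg
hsa-miR-205-5p: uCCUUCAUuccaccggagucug

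The 3′ untranslated region of ZEB1 (chromosome 10; the longest in GENCODE 29) is 2549 bases long and held 6 matches to the seed AAUACUG, and that of ZEB2 (chromosome 2) is 5370 bases long and held 5. For comparison, 15.97% of the 19111 genes with such a region held at least 1 match, and 0.0157% held as many as ZEB1. To the seed AACACUG there were 3 matches in ZEB1 and 4 in ZEB2, with at least 1 in 18.2% of genes, and to CCUUCAU there was 1 in ZEB1 and 0 in ZEB2, with at least 1 in 11.6% of genes. The other members had 1 match or 0 to AAUACUG, and TCF4 had 2 to AACACUG. A first match of each kind is shown with the bases that pair with the seed in capitals. A match is a description of letters and not a measured site.
ZEB1, match to AAUACUG: uuguuuuaucuuauCAGUAUUau
ZEB2, match to AAUACUG: gcacuaccauacauCAGUAUUuu
ZEB1, match to AACACUG: aaaaucaucagaauCAGUGUUug
ZEB2, match to AACACUG: gcaaaaauuuuguaCAGUGUUaa
ZEB1, match to CCUUCAU: auaugugguaacauAUGAAGGau

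The libraries measured long RNA over the miRNA genes, not mature miRNAs. The genes MIR200A, MIR200B, MIR200C and MIR429 had at most 3 reads in every library, and MIR141 had at most 6. MIR205 was measured in all 21 libraries. Its counts were 32.04, 29.7 and 24.7 (d0), 98.9, 112 and 98.9 (d4), 102, 115 and 139 (d15), and 32.9, 41.1 and 29.4 (d20). It was thus higher than in untreated cells at d4 (log2 fold change 1.81), d7 (0.91) and d15 (2.00, adjusted p = 1.31e-07, limma). At d1, d10 and d20 its difference from d0 did not pass the test (0.24 at d20, adjusted p = 0.386, limma). With quantile normalization MIR205 passed at d1 (0.55, adjusted p = 0.0376, limma) and at d10 (0.66) as well, so the calls on these days depend on the scaling. ZEB1-AS1, the antisense transcript that starts beside ZEB1, had counts of 137, 163 and 124 (d0) and 183, 203 and 171 (d20). It passed the test at d20 alone, with a log2 fold change of 0.40 (adjusted p = 0.0137, limma), and did not pass with libraries rescaled to the same total (0.20, adjusted p = 0.192). Whether the counting used strand is not given in the sources used here, so reads of ZEB1 and ZEB1-AS1 where they overlap may not be told apart.

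RefSeq promoter windows were at hand for 5 of the 9 genes. In the 250 bases before each start, the E-box that SNAI and ZEB proteins prefer (CACCTG, or CAGGTG on the other strand) was found before 2 of the 7 starts of ZEB1 and before none of the starts of ZEB2, TWIST2, TCF4 and PRRX1. Such a match is present in 17.5% of 35116 promoters. The window before the most upstream ZEB1 start is shown because ZEB1 had the largest increase, at chr10:31318167-31318416 (GRCh38.p14, plus strand), with the SNAI and ZEB box CAGGTG at -57 and the E-box CATCTG, which TWIST dimers bind and 12.2% of promoters hold, at -234 from the start in capitals. Binding was not measured.
ZEB1 promoter: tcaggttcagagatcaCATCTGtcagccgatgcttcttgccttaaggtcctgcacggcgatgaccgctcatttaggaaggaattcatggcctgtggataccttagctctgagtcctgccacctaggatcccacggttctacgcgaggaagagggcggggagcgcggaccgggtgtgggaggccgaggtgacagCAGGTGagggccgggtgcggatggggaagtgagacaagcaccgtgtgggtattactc

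TWIST1 and TWIST2, which encode closely related bHLH proteins, alternated. The counts of TWIST1 were 104, 109 and 83.1 (d0), 143, 125 and 149 (d1), 268, 269 and 256 (d4), and 245, 229 and 228 (d7). It then had 184, 200.2 and 199 (d10), 295, 321 and 321 (d15), and 222, 204 and 231 (d20). TWIST1 was thus high at d4 and highest at d15, with no overlap between d15 and any other day. Its log2 fold change against d0 was 0.50 (d1), 1.42 (d4), 0.98 (d10), 1.66 (d15) and 1.15 (d20), each with a standard error of 0.09. TWIST1 rose between d10 and d15 by 0.68 (adjusted p = 9.04e-07, limma) and fell by 0.51 between d15 and d20 (adjusted p = 4.47e-05, limma).

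TWIST2 counts were 46.3, 56.8 and 62.3 (d0), 156, 154 and 211 (d1), 129, 146 and 161 (d4), and 96.0, 107 and 155 (d7). They were 303, 328 and 291 (d10), 135, 130.2 and 148 (d15), and 276, 193 and 190 (d20). All 3 libraries at d10 exceeded those of every other day, and at d20 the first library was the high one. TWIST2 rose between d7 and d10 by 1.38 on the log2 scale (standard error 0.17, adjusted p = 2.84e-07, limma) and fell by 1.15 between d10 and d15 (adjusted p = 2.33e-06, limma). From d15 to d20 it rose by 0.65 (adjusted p = 0.00168, limma). In the order of levels d10 came first (0.51 above d20, adjusted p = 0.0188, limma), and neighbours in the order d20, d1, d4, d15 and d7 were not separated. The ends of that stretch did differ, with d20 above d7 by 0.88 (adjusted p = 0.000136, limma). The third library at d7 was the highest of that day, and without it the d7 value was lower than d4 by a log2 difference of -0.51 (adjusted p = 0.00251, limma), whereas with it the difference was -0.30 and did not pass.

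The within-library ratio of TWIST1 to TWIST2 turned over more than once. It was 1.83 on average (d0), 0.812 (d1), 1.83 (d4), 2.05 (d7), 0.634 (d10), 2.27 (d15) and 1.03 (d20). In each library at d1 and d10 it was at most 0.919, and in each library at d0, d4, d7 and d15 it was at least 1.33. The libraries at d10 did not overlap with those at d7 or d15 (log2 differences in the ratio of -1.66 and 1.84, exact permutation p = 0.1 for each, two-sided, the smallest that the design allows). Per kb of exon, the mean TWIST1 level was 117 and the TWIST2 level 164 at d10, against 187 and 73.3 at d15. At d15 the difference between the genes was therefore in the other direction.

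The proliferation marker MKI67 moved on the same days. Its mean was 7346 (d4), 8631 (d7), 11288 (d10), 3291 (d15) and 12122 (d20), against 10671 at d0 and 9645 at d1. Across the 6 treated means, Pearson's r with MKI67 was 0.59 for TWIST2 and -0.69 for TWIST1, over means that share libraries and scaling. All 10 of a list of proliferation genes, chosen after the data were seen, were lower than d0 at d4, d7 and d15, where 35.3%, 32.6% and 37.3% of all genes tested were lower, and 2 rose and 2 fell at d20. In the third library at d7 MKI67 was 11850.1, against 7209.81 and 6834 in the others. The part of proliferation in these results was not tested.

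**Figure D2:**
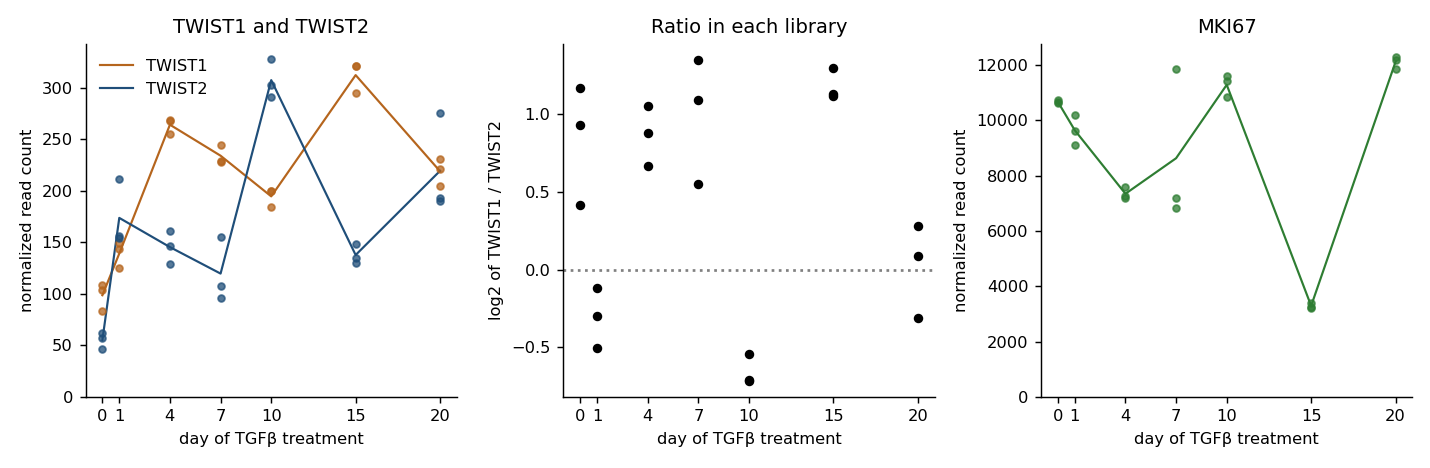
Normalized read counts of TWIST1 and TWIST2 (left, points are libraries and lines join means of 3), log2 of their ratio in each library (middle, dotted line at equal counts) and normalized read counts of MKI67 (right), all on linear axes against day of TGFβ treatment. At d10 TWIST2 was above TWIST1 in each library, at d15 TWIST1 was above TWIST2, and MKI67 had its lowest mean, 3291, at d15.

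TCF4, which encodes an E protein that pairs with other bHLH factors, changed least. Its counts were 204, 198 and 186 (d0), 256, 275 and 283 (d1), 332, 299 and 295 (d4), and 443, 432 and 370.43 (d7). They were 294, 295 and 282 (d10), 360.09, 364 and 357 (d15), and 319, 319 and 337 (d20). The d7 libraries were the highest, and the third of them was the lowest of that day. The log2 fold change against d0 was 1.07 at d7 (standard error 0.07, adjusted p = 2.24e-11, limma) and 0.73 at d20. TCF4 rose by 0.42 from d4 to d7, fell by 0.51 from d7 to d10 and rose by 0.31 from d10 to d15. In the order of levels d7 came before d15 (0.20, adjusted p = 0.0216, limma), and neighbours from d15 through d20, d4, d10 and d1 were not separated. Within that stretch d20 was still higher than d1 (0.26, adjusted p = 0.00559, limma).

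The partners of these bHLH factors were measured as a list of 6, the E proteins TCF3 and TCF12 and the ID proteins, which bind E proteins and keep them off DNA. Of 5 tested, 5 were higher at d1 and 4 at d20, where 31.3% and 32.5% of all genes tested were higher. The median log2 fold change of the 5 was 0.72 at d20. ID1 rose from 376 ± 50.3 (SD, n = 3) before treatment to 1159.62 ± 87.1 at d20, and ID2, a low gene, from 4.23 ± 1.00 to 11.6 ± 1.11. ID2 passed the filter on low values through its treated libraries. With libraries rescaled to the same total, 3 of the 5 were higher at d1, against 18.3% of all genes tested, and TCF12 turned from 0.13 to -0.065. At d20 TCF12 was then lower (-0.17).

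FOXC2 encodes a forkhead factor known from the development of mesenchyme and lymphatic vessels. Its counts were 2.67, 3.39 and 2.97 (d0), which are 3, 4 and 3 reads, then 10.5, 12.3 and 15.9 (d1), 22.1, 16.6 and 16.7 (d4), and 13.7, 14.6 and 22.3 (d7). From d10 all libraries lay above those of the earlier days, with 46.8, 37.9 and 38.1 (d10), 51, 46.1 and 59.1 (d15), and 61.5, 54.7 and 62.7 (d20). The step from d7 to d10 was 1.25 on the log2 scale (standard error 0.21, adjusted p = 2.27e-05, limma), and d10, d15 and d20 were not separated as neighbours, although d20 was higher than d10 (0.54, adjusted p = 0.0452, limma). Since the untreated level rests on 10 reads in all, the increase is better given as a ratio. It was 4.28 at d1, with a 95% exact interval for counting error of 2.09 to 9.64, and 19.8 at d20, with an interval of 10.5 to 42.0.

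PRRX1, which encodes a homeobox factor of mesenchyme, was the last to appear. It had 0, 1 and 0 reads in the untreated libraries and at most 3 reads in 16 of the 21 libraries. Its normalized counts were 1.05, 1.03 and 0.99 (d1), 0, 0 and 0.98 (d4), 1.06, 0 and 0.93 (d7), and 1.99, 0.97 and 0.98 (d10). They were 4.08, 3.62 and 2.07 (d15) and 13.8, 18.9 and 13.7 (d20). The d20 libraries were above all the others, with 45 reads in all against 1 at d0, a ratio of 51.2 with a 95% exact interval of 8.72 to 2065. Fitted without the filter on low values, where 23.4% of 19546 genes were higher at d20 and 29.5% at d15, PRRX1 passed at both days (adjusted p = 1.86e-08 and 0.000212, limma). At d10, where 25.8% were higher, limma's adjusted p was 0.0452 and that of edgeR's quasi-likelihood test 0.239, so the call at d10 rests on the test. It also rose between d15 and d20 (log2 difference 1.97, adjusted p = 6.84e-05, limma), as did 26.8% of the genes in that fit.

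**Figure D3:**
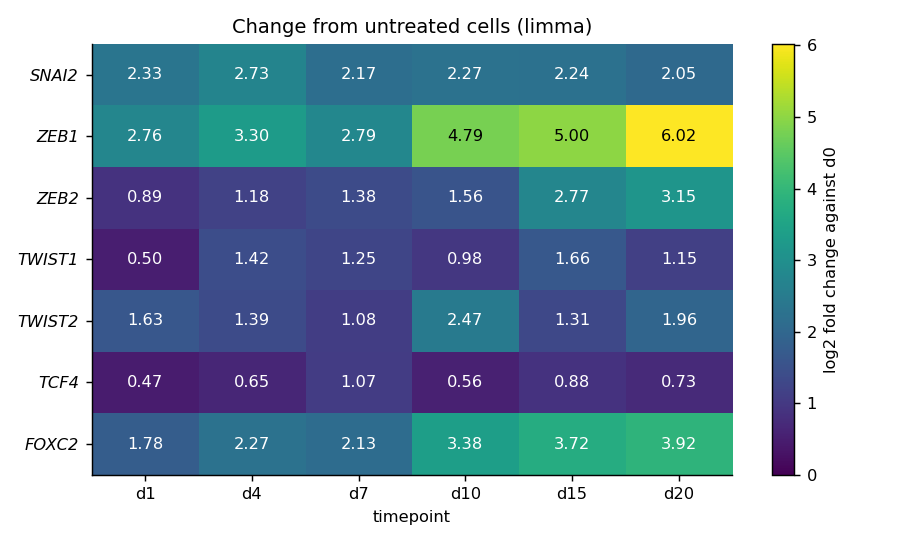
Log2 fold change against untreated cells (colour and printed value, from limma on log2(value + 1), 3 libraries against 3) for the 7 genes tested (rows) on the 6 treated days (columns). ZEB1 had the largest value on each day, up to 6.02 at d20, and SNAI2 its largest, 2.73, at d4.

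Between successive days the members moved in different directions. From d1 to d4, 5 of the 7 were higher (SNAI2, ZEB1, TWIST1, TCF4 and FOXC2) and 0 lower, where 32.9% of all genes tested were higher and 32% lower. FOXC2 was close to the threshold (adjusted p = 0.0492, limma), and 3 of the 7 were higher by edgeR and by DESeq2. From d4 to d7, TCF4 was higher and SNAI2 and ZEB1 lower, with 25.5% of all genes higher and 25.5% lower. The d7 decrease of ZEB1 (-0.51, adjusted p = 0.0291, limma) had an adjusted p of 0.0815 by edgeR, and it was -0.82 without the third d7 library. From d7 to d10, 3 were higher (ZEB1, TWIST2 and FOXC2) and 2 lower (TWIST1 and TCF4), against 36.2% and 35.2% of all genes. From d10 to d15, 3 were higher (ZEB2, TWIST1 and TCF4) and TWIST2 lower, against 39.3% and 40.5%. From d15 to d20, ZEB1 and TWIST2 were higher and SNAI2 and TWIST1 lower, against 37.7% and 36.3%. Counts of 1 to 3 of 7 genes are too small to be set apart from these shares, and no such test was run.

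The orders of levels given above also used pairs of days that do not follow each other. The share of all genes that differed in either direction was 64.8% between d1 and d7, 33.1% between d1 and d10, 72.9% between d4 and d10, 58.1% between d4 and d15, and 66.8% between d4 and d20. It was 56.3% between d7 and d15, 62% between d7 and d20, and 46.3% between d10 and d20. As neighbours in their own orders, ZEB1 and FOXC2 were each higher at d10 than at d4 (1.496 and 1.12 on the log2 scale), and TWIST1 was higher at d10 than at d1 (0.48, adjusted p = 0.000468, limma).

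Per kb of exon, the mean level of SNAI2 was 502 at d0, 3321 at d4 and 2081 at d20. At d0 TWIST1 (59.2 per kb), TWIST2 (29.4) and TCF4 (12.7) followed, and ZEB1, ZEB2 and FOXC2 were all near 1. At d20 TWIST1 (131), TWIST2 (117), ZEB1 (66.5), TCF4 (21.004), FOXC2 (20.6) and ZEB2 (9.17) followed SNAI2. The length merges the exons of all coding transcripts of a gene, 15470 bases for TCF4 and 2900 for FOXC2. Ranks of genes with close levels depend on this choice. The within-library ratio of SNAI2 to ZEB1 counts fell from an average of 220 at d0 to 144 at d1, 32.9 at d10 and 11.9 at d20, with libraries between 11.4 and 12.3 at d20.

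Other transcription factors linked to EMT were less uniform. Of 23 listed, which include the E protein genes TCF3 and TCF12 described above, 16 were tested, and at d1 10 of these were higher and 1 lower, at d20 8 were higher and 3 lower, with medians of 0.67 and 0.16. With libraries rescaled to the same total, 7 were higher and 5 lower at d20, and the median was -0.03. At d1, 31.3% of all genes tested were higher and 28.5% lower. At d20 these shares were 32.5% and 30.2%, and 19.9% and 50.8% after that rescaling. HMGA2, which encodes an architectural chromatin protein, stood at 653 ± 12.99 (SD, n = 3) before treatment, 5253 ± 126 at d1 and 5639 ± 85.7 at d20. ETS1, which encodes an ETS family factor, stood at 2292 ± 54.7, 8564 ± 138 and 9779.83 ± 160 on the same days. KLF8, of the Krüppel-like factors, fell by 0.78 on the log2 scale at d20 and FOXC1, the paralog of FOXC2, by 0.37 (adjusted p = 0.0209, limma).

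The corepressors that SNAI, ZEB and TWIST proteins recruit moved in both directions. Of 17 tested, 5 were higher and 8 lower at d20, with a median log2 fold change of -0.04. Among all genes tested, 32.5% were higher and 30.2% lower at d20, so the count higher lies near its share. With libraries rescaled to the same total, 2 were higher and 11 lower, against 19.9% and 50.8% of all genes tested. KDM1A, which encodes the histone demethylase LSD1, rose from 4279 ± 91.7 (SD, n = 3) before treatment to 5714 ± 70.8 at d20, and WTIP, of the Ajuba family of LIM proteins, from 49.9 ± 5.29 to 95.3 ± 9.62. HDAC1, a histone deacetylase, fell by 0.47 and EZH2, the methyltransferase of Polycomb repressive complex 2, by 0.41 on the log2 scale. At d4, d7 and d15, the days on which all 10 proliferation genes were lower, 10, 12 and 13 corepressors were lower. Of all genes tested, 35.3%, 32.6% and 37.3% were lower on those days, and the part of proliferation was not tested.

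A further 3 lists describe the program around the factors. For comparison, 31.3% of all genes tested were higher and 28.5% lower at d1, and 32.5% and 30.2% at d20. All 12 immediate TGFβ target genes tested were higher at d1 and 11 at d20, with medians of 2.11 and 2.10. PMEPA1, a feedback inhibitor of TGFβ signalling, rose from 348 ± 24.5 (SD, n = 3) before treatment to 10273 ± 348 at d1. Of 16 mesenchymal genes, 12 rose and 2 fell by d1, and 15 were higher and 1, S100A4, lower at d20, where the median was 4.71. CDH11, a mesenchymal cadherin, had a mean of 0.613 at d0, 76.3 at d1 and 2238 at d20, and POSTN, a matrix protein, had 0, 14.7 and 681. Both passed the filter on low values through their treated libraries, so a rise was given for them by the filter, and both count among the 15. Of 26 epithelial genes that SNAI and ZEB factors are known to repress, 17 were lower and 2 higher at d1, and 26 were lower at d20. ELF3, an epithelial ETS factor, fell from 227 ± 18.6 (SD, n = 3) before treatment to 37.8 ± 2.83 at d1 and 16.4 ± 3.38 at d20, and MAL2, of apical transport, from 4255 ± 138 to 1729 ± 11.9 and 381 ± 46.6.

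The medians of the lists had different time courses. The median of the TGFβ targets was at its highest at d4, 2.52, and that of the mesenchymal genes was 3.61 at d10 and at its highest at d20. The median of the epithelial genes was -0.48 (d7), -1.27 (d10), -0.95 (d15) and -1.28 (d20). CDH1 had libraries of 7314, 6946 and 7325 (d0), 6781, 6904 and 6463 (d1), 3618, 3689 and 3855 (d10), and 2838, 2910.02 and 2857 (d20). At d1, where SNAI2 was already high, the log2 fold change of CDH1 was -0.10 (adjusted p = 0.148, limma), and with libraries rescaled to the same total or quantile normalized it was -0.29 and -0.31 and passed the test. At d4, where SNAI2 was highest, CDH1 was lower (-0.35, adjusted p = 1.39e-05, limma), and at d7 its log2 fold change was 0.0046 (adjusted p = 0.95, limma). At d10 it was -0.95. At d15 it was -0.18, and there ESRP1, an epithelial splicing regulator, had 0.08 (adjusted p = 0.151, limma).

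**Figure D4:**
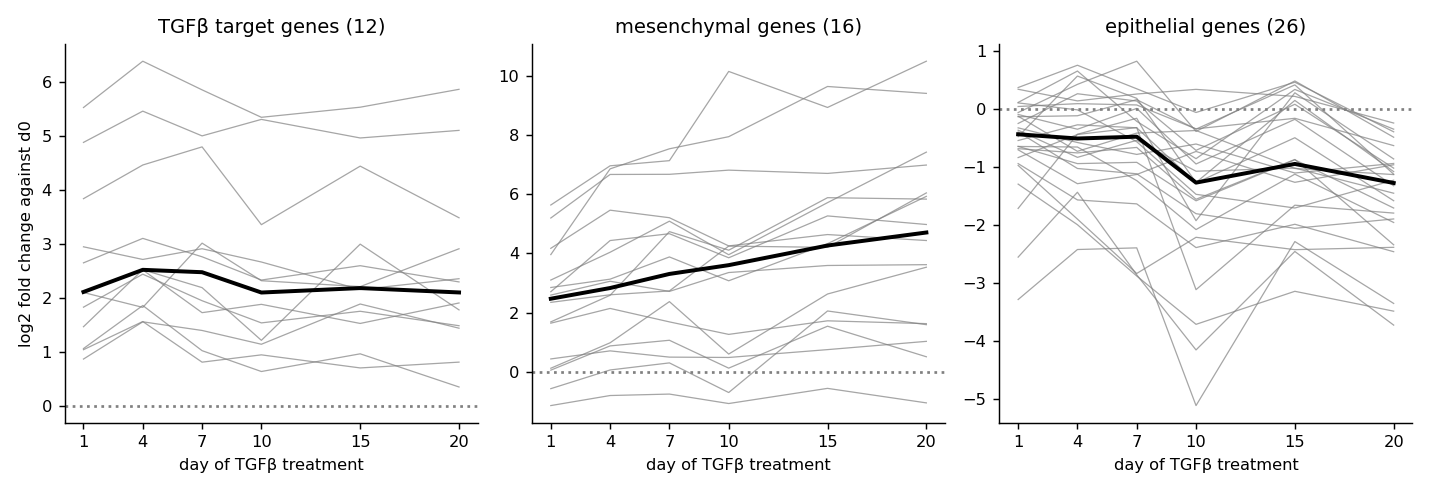
Log2 fold change against untreated cells (y axis, a separate scale in each panel) against day of TGFβ treatment for the tested genes of 3 lists: 12 immediate TGFβ targets, 16 mesenchymal genes and 26 epithelial genes. Thin lines are genes and the thick line is the median of the list, which at d20 was 2.10, 4.71 and -1.28.

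The genes whose pattern over the 21 libraries was most like that of a member were found by Pearson's r of log2(value + 1) among 11489 other genes with a mean of at least 50 (11490 for FOXC2). The points share libraries and size factors, and r is given as a description. SNAI2 was closest to LAMA3 (r = 0.993), a laminin chain gene, and CHST11 (0.989). ZEB1 was closest to FUT8 (0.981) and to CDH2 (0.980), the gene of N-cadherin, which rose from 10.99 at d0 to 782 at d20. ZEB2 was closest to MME (0.970), a surface metallopeptidase, and ATP8B2 (0.960). TWIST1 was closest to CDH13 (0.976) and MEIS3 (0.973), TWIST2 to EMP3 (0.974) and CDV3 (0.968), and TCF4 to HGSNAT (0.970) and CXCR7 (0.956). FOXC2 was closest to ZEB1 (0.986) among all genes compared, followed by CAMK4 (0.982).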

How the data were processed

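The authors deposited 1 normalized signal per gene and library: reads divided by 1 size factor per library, rounded to 2 decimals. The submitters' processing notes name STAR 2.7, Salmon 1.4 and hg19; annotation and counting are not given in the sources used here. Recovered reads were whole (tolerance 0.1) for 100% of values. The test was that of limma 3.58.1 (R 4.3.3), moderated with a mean trend, on log2 of the signal plus 1, with all 21 libraries in 1 fit, a mean filter of 10 and Benjamini-Hochberg adjustment within each contrast. Counting intervals were exact (95%, scipy 1.17.1), and cover counting error alone. Genes named are the 9 members, the 2 most similar genes of each tested member, and the 2 largest rises and falls at d20 of each list, of which 1 gene is not reported here. Further genes are CDH1, CDH2, ESRP1, ZEB1-AS1, the miRNA genes, the basal markers, TCF3, TCF12 and MKI67, the last 3 named after their values were seen. Members and lists were chosen with earlier results of these data known. The script was tested on simulated data. Alternatives were other pseudocounts, filters and scalings, edgeR 4.0.16, DESeq2 1.42.0, and each library left out.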

Additional observations from a re-analysis of the deposited data

Results flagged for a closer look

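Among the 7 genes tested, 6 steps between successive treated days passed limma's test with at least a 2-fold change (log2 of 1). The share of all genes tested that met this rule was not counted, so the 6 steps describe these genes alone. ZEB1 rose by 2.01 from d7 to d10 (adjusted p = 7.04e-09, limma) and by 1.02 from d15 to d20 (adjusted p = 5.59e-05). TWIST2 rose by 1.38 from d7 to d10 (adjusted p = 2.84e-07, limma), and its log2 change from d10 to d15 was -1.15 (adjusted p = 2.33e-06). FOXC2 rose by 1.25 from d7 to d10 (adjusted p = 2.27e-05, limma). ZEB2 rose by 1.21 from d10 to d15 (adjusted p = 1.02e-05, limma). Without the third library at d7, the 3 steps from d7 to d10 were 2.32, 1.59 and 1.46.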

How the results depend on the processing

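No paired analysis was possible because not one column names its replicate. For 93 results, 1276 alternative values were computed. The 6 counts of 7 members higher than d0 were 7 under each alternative run. The count of members higher at d4 than d1, 5, was 3 with quantile normalization, edgeR and DESeq2, and between 2 and 5 with a library left out. The count lower at d7 than d4, 2, was 1 with both timepoints alone in the fit, with edgeR and with DESeq2, and between 1 and 3 with a library left out. The count lower at d10 than d7, 2, was 1 with quantile normalization and between 1 and 2 with a library left out. Uncalled differences changed sign for SNAI2 from d7 to d10 (-0.044, quantile normalization), for SNAI2 from d10 to d15 (0.033 with libraries rescaled to the same total, 0.13 with quantile normalization, adjusted p = 0.0117, limma) and for FOXC2 from d10 to d15 (-0.087, quantile normalization). Another 31 single-gene values lost their call and 15 gained one, and the cause was not tested. The rise of FOXC2 from d1 to d4 lost its call with a pseudocount of 10 (adjusted p = 0.0602, limma), edgeR (0.147) and DESeq2 (0.199). It also lost the call without the first or second d1 library, any 1 d4 library or the third d7 library (0.0516 to 0.191). The rise of ZEB1 over the same days lost it without the first or second d1 or the first d4 library (0.0518 to 0.0833), and that of TCF4 without the first d1 or the first d4 library (0.121 and 0.148) and with edgeR (0.0525). The fall of ZEB1 from d4 to d7 lost it without the first or second library of either day (0.0644 to 0.165), and that of TWIST1 from d7 to d10 without the first library of either day (0.0567 and 0.0634). Rescaling to the same total moved the median of all genes against d0 to between -0.20 and -0.14. Depth limits SNAI1 and PRRX1, with at most 3 reads in most libraries.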
